A study of Homo sapiens with 60 samples.

Results

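Levels of H19 and of 6 other imprinted genes were read from mRNA libraries of A549, a widely used human lung carcinoma cell line, made 24 h after herbal extracts were added. The genes were H19, IGF2, CDKN1C, PHLDA2, PEG10, MEST and GRB10, which are 7 of the 60675 Ensembl gene IDs in the count table. H19 was selected on its own counts in these libraries, for a steep fall with dose, so its levels are given as a description with no test. The other 6 were named together with it as imprinted genes, after earlier results of these data were known. Of those 6, 5 had enough reads to test and CDKN1C did not.

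The groups were as follows. Water extracts of the herbal formulas Sayeok-tang and Bojungikgi-tang were given at 20, 100 and 500 µg/mL, called low, medium and high below, with n = 3 libraries per dose for Sayeok-tang and n = 2 for Bojungikgi-tang. Ethanol extracts of dried ginger (Zingiberis Rhizoma), fresh ginger (Zingiberis Rhizoma Recens) and Pinelliae Tuber followed the same dose steps, with 3 libraries each. Scutellariae Radix, also an ethanol extract, was used at 7.6, 38 and 190 µg/mL, 3 libraries each. Ethanol extracts of Coptidis Rhizoma, at 4.4, 22 and 110 µg/mL, and of Zizyphi Fructus, at 20, 100 and 500 µg/mL, had n = 1 per dose and so no test. The 3 vehicle libraries came from cells given DMSO, at 0.1% by the sample labels and 2% by the series text. Whether the extracts also carried DMSO is not given by the sources used here, and the high dose was lower for Scutellariae Radix and Coptidis Rhizoma because, by the series text, an extract with an IC20 under 500 µg/mL was used at that concentration.

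In all there were 60 libraries in 25 groups, with totals of 17.5 to 38.5 M counts (M for mega, median 23.5 M). Between 22497 and 24557 genes had reads in a library, and the mitochondrial share of counts was 8.29 to 15.9%. The 5 markers of the A549 epithelial line (KRT8, KRT18, EPCAM, AKR1B10 and AKR1C1) were above 1 CPM (counts per M counts of the library, scaled as described below) in every library. Of 9 markers of leukocytes, endothelium and fibroblasts, 7 were below 1 CPM in every library, while COL1A1 ran from 17.4 to 36.0 and CD14 from 0.652 to 2.28. The labels do not say whether replicates were separate cultures, so p-values cover only the variation among these samples, part of which may be technical. The vehicle libraries carry no extract set number, so handling and treatment cannot be told apart in any comparison with vehicle. A lower level in a bulk sample may come from fewer cells with the RNA or from less RNA per cell, and these cannot be told apart.

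Imprinted genes are read mainly from the copy inherited from one parent, through DNA methylation marks set in the germ line. H19 is a maternally expressed long noncoding RNA, abundant in the fetus and placenta and re-expressed in many tumours, and IGF2, a growth factor, is its paternally expressed neighbour. The pair shares enhancers and an imprinting control region, where the insulator protein CTCF binds the unmethylated maternal copy. Many imprinted genes act on growth: CDKN1C inhibits cyclin-dependent kinases, PHLDA2 restrains placental growth in mouse, and GRB10 is an adaptor that dampens signalling from the insulin and IGF1 receptors. PEG10 is a paternally expressed gene derived from a retrotransposon, with gag- and pol-like reading frames, and is needed for the mouse placenta. MEST is paternally expressed and encodes a protein of the hydrolase fold family.

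By GENCODE 29 on GRCh38, 4 of the genes lie in the imprinted domain near the end of the short arm of chromosome 11, all on the minus strand. H19 (ENSG00000130600) spans chr11:1995176-2001470, IGF2 (ENSG00000167244) chr11:2129112-2149603, CDKN1C (ENSG00000129757) chr11:2883213-2885773 and PHLDA2 (ENSG00000181649) chr11:2928273-2929455. The other 3 lie at separate sites on chromosome 7: GRB10 (ENSG00000106070) on the minus strand at chr7:50590063-50793462, and on the plus strand PEG10 (ENSG00000242265) at chr7:94656325-94669695 and MEST (ENSG00000106484) at chr7:130486171-130506465.

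H19 and MEST each also host a microRNA, whose mature forms these mRNA libraries do not measure. The mature sequences are shown because they are the defined short products of host RNAs whose levels are reported below. The miR-675 hairpin lies within exons of 4 of 12 annotated H19 transcripts. The miR-335 hairpin lies within the span of MEST and in an exon of 0 of its 17 annotated transcripts. Capitals mark the seed, bases 2 to 8, and the 4 seeds differ from each other (RefSeq, GRCh38.p14).
hsa-miR-675-5p (chr11:1996800-1996822, minus): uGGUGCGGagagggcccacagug
hsa-miR-675-3p (chr11:1996768-1996787, minus): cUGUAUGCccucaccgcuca
hsa-miR-335-5p (chr7:130496126-130496148, plus): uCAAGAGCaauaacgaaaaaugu
hsa-miR-335-3p (chr7:130496162-130496183, plus): uUUUUCAUuauugcuccugacc

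Promoter sequences of 3 of the genes (H19, GRB10 and MEST) were matched in RefSeq. Those of H19 and GRB10 are shown because these genes moved in opposite directions with dose. Each runs from 250 bases before to 50 after the start, in the direction of transcription, and capitals mark CG dinucleotides, the sites of DNA methylation. In 35116 promoters of the same length the median was 14 CG.
H19 (chr11:2001217-2001516, minus): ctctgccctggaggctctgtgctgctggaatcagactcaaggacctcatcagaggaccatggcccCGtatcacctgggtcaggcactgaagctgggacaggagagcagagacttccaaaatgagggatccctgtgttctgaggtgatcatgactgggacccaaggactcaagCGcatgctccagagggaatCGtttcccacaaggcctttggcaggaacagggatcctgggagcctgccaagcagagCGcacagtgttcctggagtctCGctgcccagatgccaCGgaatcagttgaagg
GRB10, most upstream start (chr7:50793404-50793703, minus): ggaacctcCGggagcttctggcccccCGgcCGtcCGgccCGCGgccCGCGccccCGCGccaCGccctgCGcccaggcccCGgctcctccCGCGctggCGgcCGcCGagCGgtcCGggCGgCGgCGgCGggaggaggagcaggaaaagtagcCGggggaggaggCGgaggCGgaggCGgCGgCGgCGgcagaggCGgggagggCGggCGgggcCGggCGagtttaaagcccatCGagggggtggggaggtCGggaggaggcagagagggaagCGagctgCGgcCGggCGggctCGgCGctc
The H19 window shown, at the upstream end of the span of the gene, held 6 CG, and 33.7% of promoters held fewer. H19 has 12 annotated transcripts, and which start gave the counted reads was not measured. The window may therefore not be that of the start in use. The GRB10 window shown, that of its most upstream start, held 44, and 95.8% of promoters held fewer. The 5 annotated starts of GRB10 ranged from 3 to 49 CG and the 5 of MEST from 13 to 25 CG. Methylation was not measured, and these counts describe the reference sequence only.

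Levels are in CPM, the reads of a gene per M reads of a library whose total was scaled by the TMM method over the 60 libraries. Divided by exon length, the vehicle means ran from 56.6 CPM per kb for PEG10 to 0.0732 CPM per kb for CDKN1C. Between them lay H19 (29.5), PHLDA2 (19.9), MEST (13.9), GRB10 (8.32) and IGF2 (0.728), all in CPM per kb. So H19 was the second most abundant of the 7 per length in vehicle cells, and its neighbour IGF2 was far below it. The reads behind these levels differed as widely. PEG10 had 2988 to 13074 reads per library, H19 339 to 3208, GRB10 1348 to 5061 and MEST 1107 to 2763, while PHLDA2 had 299 to 800 and IGF2 78 to 210.

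CDKN1C was too low to measure. It had 0 to 10 reads per library with a median of 4, under 10 reads in 59 of 60 libraries, and it did not pass the low-count filter in any of the 3 fits. Its group means ran from 0 to 0.330 CPM, with 0.181 ± 0.128 CPM in vehicle (SD, n = 3) and 0.459 CPM in the highest single library. The 1 library without a read, Coptidis Rhizoma at 22 µg/mL, allows a level of up to 0.142 CPM (3 counts of its total, counting error only). No difference between groups was detectable for CDKN1C at this depth. IGF2 could be tested, but at these counts and with overlapping annotation its values are uncertain: its estimated count was not a whole number in 91.7% of libraries, and its exons overlap on the same strand those of INS-IGF2 (0 to 2.01 reads per library) and AC132217.1 (up to 11.3 reads).

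H19 was lower at each higher dose in 6 of the 8 extracts, by group means, and it was lowest in dried ginger at 500 µg/mL. The exceptions were Pinelliae Tuber and Zizyphi Fructus. Its vehicle libraries had 83.2, 79.2 and 93.8 CPM (mean 85.4 ± 7.54, SD, n = 3). These values chose the gene and are given with no test.

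**Figure D1:**
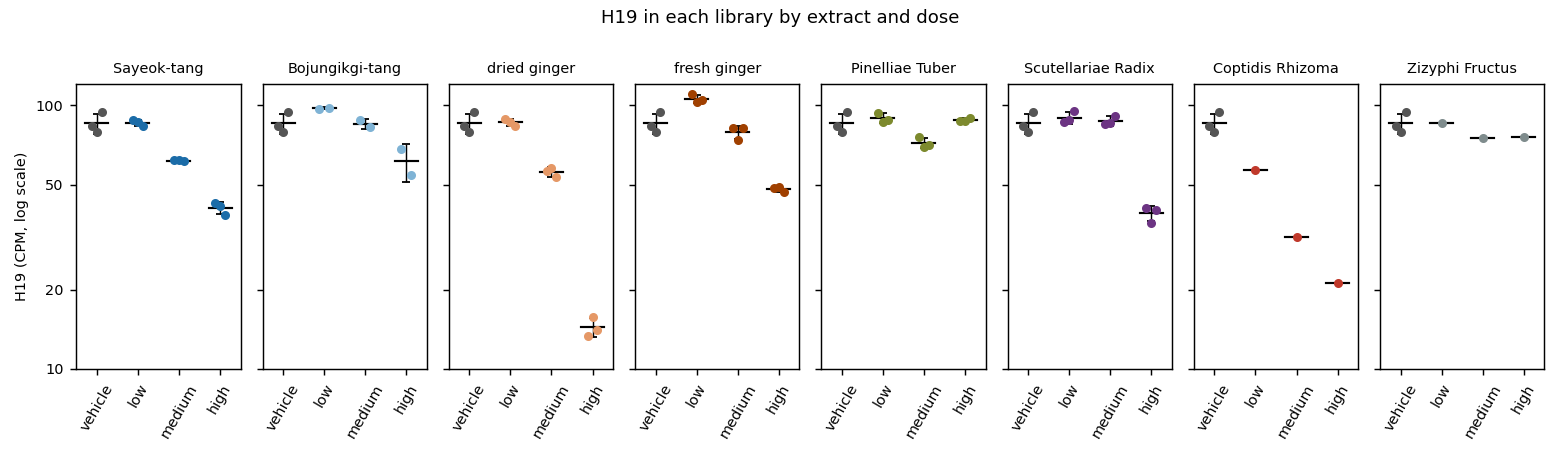
H19 level in CPM (TMM-scaled, vertical log axis) in each of the 60 libraries, 1 panel per extract with vehicle, low, medium and high dose from left to right; points are libraries, horizontal lines are group means and bars are SD. The 3 dried ginger libraries at the high dose lie between 13.4 and 15.7 CPM, against 79.2 to 93.8 CPM in vehicle, and the Pinelliae Tuber panel shows no such drop.

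In dried ginger H19 had 89.0, 86.0 and 83.3 CPM at the low dose, 56.5, 57.6 and 53.2 at the medium dose and 13.4, 15.7 and 14.1 at the high dose. The low dose sat inside the vehicle range, and the 3 doses did not overlap. By group means the high dose was 5.99-fold lower than the low dose and 5.94-fold lower than vehicle. The log2 ratio of high to low dose was −2.54 ± 0.07 (SE), where log2 ratios of H19, here and below, are differences of mean log2(CPM + 0.5) and folds are plain ratios of mean CPM. Fresh ginger at the same doses started higher and ended higher. Its libraries had 110, 102 and 105 CPM at the low dose, 81.7, 73.7 and 81.7 at the medium dose and 48.4, 49.1 and 46.8 at the high dose. The low-dose libraries of fresh ginger lay above all 3 vehicle libraries, and its high dose was 2.20-fold lower than its low dose (log2 ratio −1.13 ± 0.04) and 1.78-fold lower than vehicle.

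The formulas had smaller differences between doses than dried ginger. Sayeok-tang had 88.2, 86.0 and 83.6 CPM at the low dose, 61.7, 61.8 and 61.4 at the medium dose and 42.7, 41.3 and 38.4 at the high dose. Its doses did not overlap, and the high dose was 2.11-fold lower than the low dose (log2 ratio −1.07 ± 0.05). Bojungikgi-tang had 96.6 and 97.9 CPM at the low dose, 87.7 and 82.3 at the medium dose and 68.2 and 54.2 at the high dose. Its 2 high-dose libraries differed more from each other than the 3 of any other high-dose group, and the difference between high and low dose, 1.59-fold, had the widest error (log2 ratio −0.67 ± 0.16, and −0.84 to −0.51 when 1 library was left out).

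Scutellariae Radix differed from the gingers and Sayeok-tang in where the drop lay. H19 had 86.1, 87.5 and 95.0 CPM at 7.6 µg/mL and 84.5, 85.5 and 91.2 CPM at 38 µg/mL, which overlap each other and vehicle, then 40.7, 35.8 and 40.0 CPM at 190 µg/mL. The high dose was 2.3-fold lower than the low dose (log2 ratio −1.20 ± 0.07). Pinelliae Tuber had 93.7, 86.6 and 87.7 CPM at the low dose, 75.5, 69.5 and 70.5 at the medium dose and 87.1, 87.2 and 89.5 at the high dose. Its medium dose alone lay below vehicle, and its high and low doses overlapped (log2 ratio −0.02 ± 0.04).

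Coptidis Rhizoma, with 1 library per dose, gave 56.7 CPM at 4.4 µg/mL, 31.6 at 22 µg/mL and 21.2 at 110 µg/mL. Each of these lay below the lowest vehicle library, and the high dose was 4.03-fold below the vehicle mean. In the same 3 libraries mitochondrial transcripts took 15.0, 15.9 and 9.92% of counts, against 9.05 ± 0.417% in vehicle (SD, n = 3), and the part of this in the H19 values was not tested. Zizyphi Fructus gave 85.6, 75.1 and 75.4 CPM at its 3 rising doses, 1.14-fold lower at the high than at the low dose. No replicate check exists for either extract.

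Ordered by group mean, H19 was lowest in dried ginger high (14.4 CPM), Coptidis Rhizoma high (21.2) and medium (31.6), Scutellariae Radix high (38.9), Sayeok-tang high (40.8) and fresh ginger high (48.1). Then came dried ginger medium (55.8), Coptidis Rhizoma low (56.7), Bojungikgi-tang high (61.2), Sayeok-tang medium (61.6), Pinelliae Tuber medium (71.8) and the medium (75.1) and high (75.4) doses of Zizyphi Fructus. These 13 of the 24 extract groups had all their libraries below every vehicle library. The other 11 ran from fresh ginger medium (79.0 CPM) to fresh ginger low (106 CPM). Of the 24 pairs of neighbours in the order of all 25 groups, 10 did not overlap in their libraries. These include pairs in which both groups had 1 library, which cannot overlap unless equal, so the count is a description only. Dried ginger high, Coptidis Rhizoma high and Coptidis Rhizoma medium each lay apart from the next group in the order, while Scutellariae Radix high and Sayeok-tang high overlapped. Each neighbour from Bojungikgi-tang medium (85.0 CPM) to Scutellariae Radix low (89.5 CPM), vehicle included, overlapped with the next. Over the 25 groups the highest mean of H19 was 7.35 times the lowest, against 3.14 for PEG10, 2.02 for GRB10, 2.01 for IGF2, 1.71 for PHLDA2 and 1.3 for MEST.

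PEG10 was the member called lower most often. It was lower in 11 of the 14 comparisons between pairs of groups that were tested, and higher in none, by edgeR's quasi-likelihood test with Benjamini-Hochberg adjusted p under 0.05. GRB10 went the other way, higher in 9 of the 14 and lower in none. The share of all genes called in as many comparisons is not given here, and 62.4% were called in at least 1. Many of the 14 share libraries: the 6 comparisons with vehicle use the same 3 vehicle libraries, and every comparison of an extract at the high dose uses the same high-dose libraries, so the counts are not independent of each other.

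**Figure D2:**
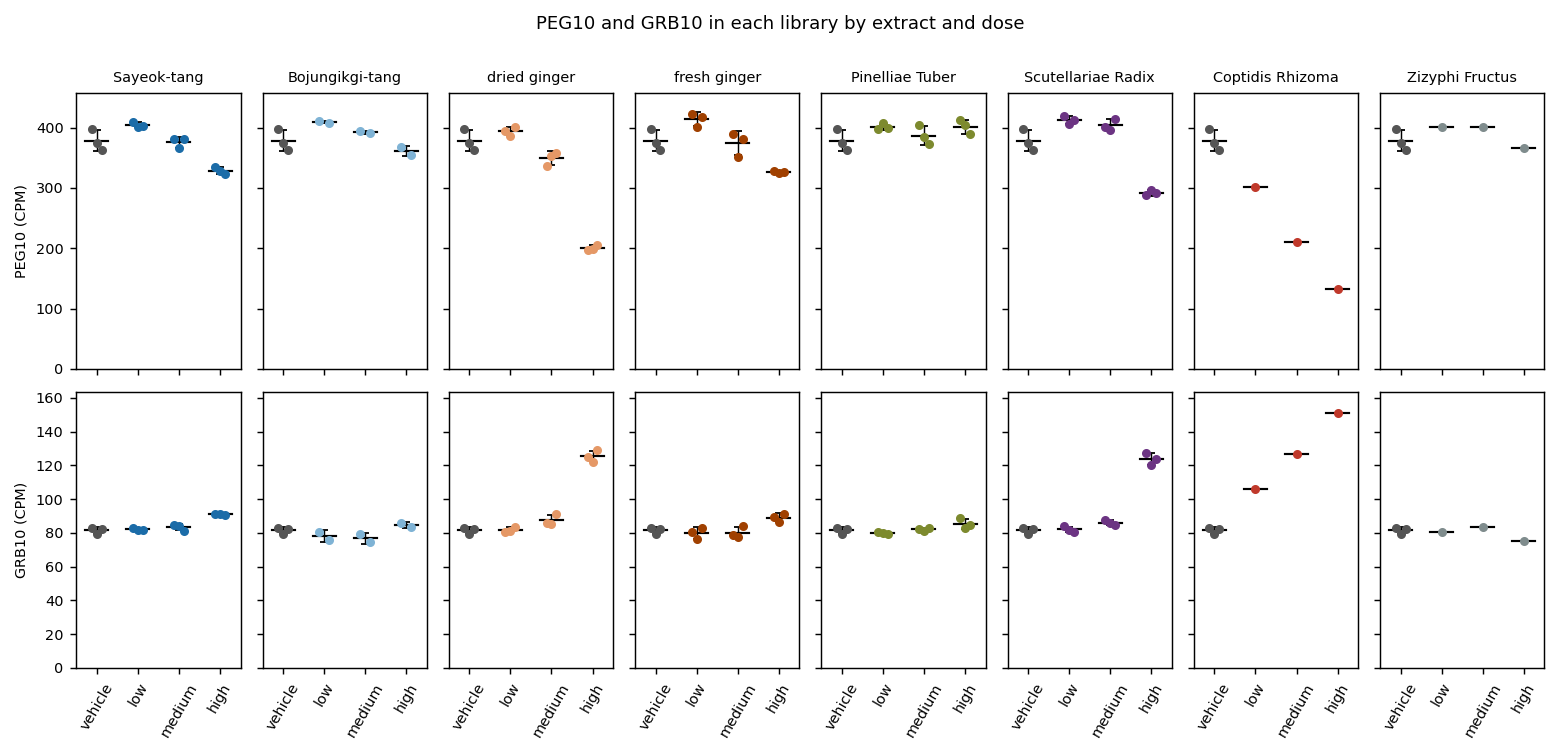
PEG10 (upper row) and GRB10 (lower row) in CPM per library, 1 column per extract with vehicle, low, medium and high dose from left to right; points are libraries, horizontal lines are group means and bars are SD. PEG10 in dried ginger at the high dose lies at 197 to 205 CPM, below vehicle at 363 to 397 CPM, while GRB10 lies at 122 to 129 CPM, above vehicle at 79.1 to 83.0 CPM.

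In dried ginger PEG10 had 197, 199 and 205 CPM at the high dose, against 395, 386 and 401 CPM at the low dose. The medium dose lay between them, at 337, 353 and 359 CPM, and none of the 3 doses overlapped. The change from low to high dose was −0.98 ± 0.04 on the log2 scale (edgeR's quasi-likelihood test, adjusted p = 3.98e-17). GRB10 had 125, 122 and 129 CPM at the high dose of dried ginger, against 80.4, 81.0 and 83.4 CPM at the low dose. It rose by 0.62 ± 0.04 (adjusted p = 5.63e-13), and the medium dose, at 85.6, 85.2 and 91.1 CPM, lay just above the low dose. MEST had 67.3, 67.3 and 70.3 CPM at the high dose, against 63.6, 64.9 and 63.1 CPM at the low dose. That change of 0.10 ± 0.04 passed the test narrowly (adjusted p = 0.0480), and was lost with RLE size factors (adjusted p = 0.0658), with no filter on low counts (0.169), by DESeq2 (0.0869) and without any one of 5 of the 6 libraries (up to 0.171). IGF2 had 5.83, 4.29 and 4.76 CPM at the high dose, against 5.83, 6.08 and 5.88 CPM at the low dose, and did not pass (−0.26 ± 0.13, adjusted p = 0.117) except without high-dose library 1 (0.0383). In this comparison 32.8% of all genes tested were called (16.8% higher and 16% lower), and of the 5 members 2 were higher and 1 lower.

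Beside these changes, mitochondrial transcripts took 10.2% of counts at the high dose of dried ginger and 9.62% at the low dose, and their part was not tested. SGCE, whose exons overlap those of PEG10 on the opposite strand, was at −0.09 ± 0.05 (adjusted p = 0.140), and COPG2, which overlaps MEST in the same way, at −0.07 ± 0.06 (adjusted p = 0.375). Neither was called in any of the 14 comparisons by edgeR. The library kit keeps the strand, but whether the counting used it is not given in the sources used here, so reads from the overlapping stretches may be shared.

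In fresh ginger PEG10 and GRB10 moved by less than in dried ginger, a difference tested below. PEG10 had 328, 324 and 327 CPM at the high dose, against 423, 401 and 418 CPM at the low dose (−0.34 ± 0.04, adjusted p = 9.61e-07, edgeR). GRB10 had 89.3, 86.5 and 91.4 CPM at the high dose, against 80.6, 76.3 and 83.1 CPM at the low dose. The groups do not overlap, and GRB10 rose by 0.15 ± 0.04 (adjusted p = 0.0312), a call lost without either of 2 high-dose or 2 low-dose libraries (1 and 3, and 1 and 2; adjusted p up to 0.191) and with no filter on low counts (0.0643). IGF2, the growth factor, had 5.08, 5.35 and 3.74 CPM at the high dose, against 6.17, 7.51 and 6.47 CPM at the low dose. It fell by 0.49 on the log2 scale (SE 0.13, adjusted p = 0.0251), the only call for IGF2 among the 14 comparisons. That call was lost without high-dose library 1 (adjusted p = 0.0503), high-dose library 3 (0.196) or low-dose library 2 (0.146). MEST, at 0.10 ± 0.04, did not pass (adjusted p = 0.147). Of the 5 members 1 was higher and 2 were lower, where 3.67% of all genes were called (1.72% higher and 1.95% lower).

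The 2 gingers were compared directly because they were given at the same doses. At the high dose PEG10 had 197, 199 and 205 CPM in dried ginger, against 328, 324 and 327 CPM in fresh ginger (−0.71 ± 0.04, adjusted p = 2.60e-13, edgeR). GRB10 was higher in dried than in fresh ginger by 0.49 ± 0.04 (adjusted p = 2.01e-10). The other 3 did not pass: MEST differed by 0.02 (adjusted p = 0.730), IGF2 by 0.06 ± 0.13 (0.821) and PHLDA2 by −0.04 ± 0.17. Of the 5 members 1 was higher and 1 lower in dried ginger, where 22.5% of genes were called (11.3% higher and 11.3% lower).

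The change with dose itself also differed between the gingers. The fall of PEG10 between the low and high dose was steeper in dried ginger, with a difference of −0.63 ± 0.06 on the log2 scale (95% interval −0.74 to −0.52, adjusted p = 9.83e-09, edgeR). The rise of GRB10 was larger in dried ginger by 0.47 ± 0.06 (0.35 to 0.58, adjusted p = 1.33e-06). In this test 11.2% of genes were called (5.56% higher and 5.67% lower), and MEST (−0.01 ± 0.05, adjusted p = 0.958), IGF2 (0.23 ± 0.18, 0.493) and PHLDA2 (0.04 ± 0.24) were not. For H19, which carries no test, the log2 ratios of high to low dose were −2.54 ± 0.07 in dried and −1.13 ± 0.04 in fresh ginger.

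**Figure D3:**
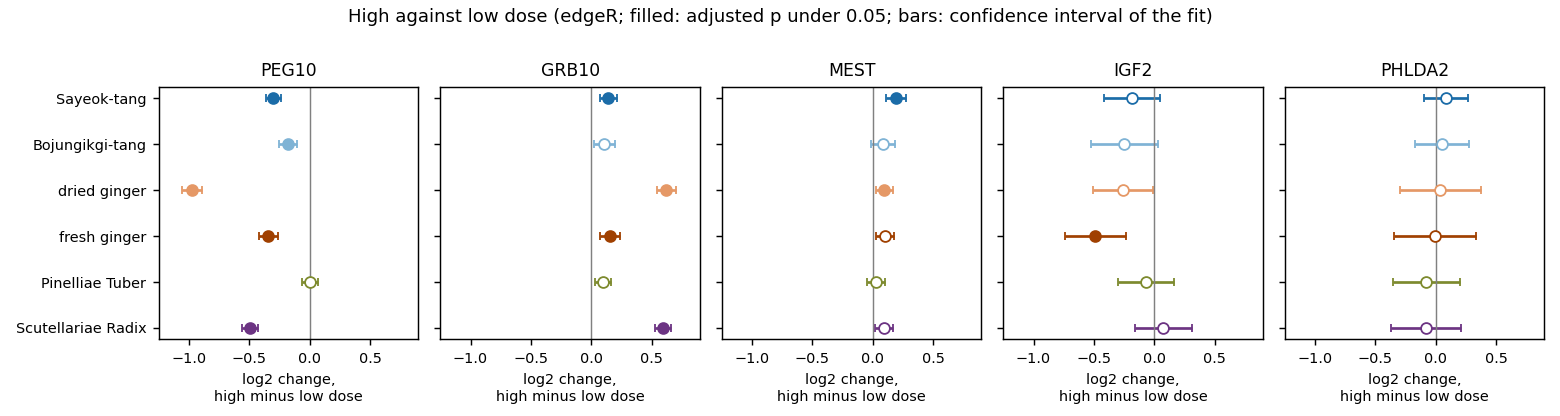
Log2 change between the high and the low dose (horizontal axis) of the 5 tested members, 1 panel each, with the 6 replicated extracts as rows; points are edgeR estimates, bars are 95% intervals and filled points have an adjusted p under 0.05. PEG10 lies left of 0 in 5 extracts, farthest in dried ginger at −0.98, and GRB10 lies farthest right in dried ginger (0.62) and Scutellariae Radix (0.59).

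In Scutellariae Radix PEG10 fell and GRB10 rose, both at 190 µg/mL. PEG10 had 287, 297 and 292 CPM at the high dose, against 420, 407 and 412 CPM at the low dose (−0.50 ± 0.03, adjusted p = 3.93e-15, edgeR). GRB10 had 127, 120 and 124 CPM at the high dose, against 83.8, 81.9 and 80.4 CPM at the low dose (0.59 ± 0.03, adjusted p = 3.79e-17). At 38 µg/mL both stayed near the low dose, with PEG10 at 401, 396 and 415 CPM and GRB10 at 87.7, 85.7 and 84.8 CPM. GRB10 was thus at 120 to 127 CPM in this group and at 122 to 129 CPM in dried ginger at 500 µg/mL, where PEG10 was at 197 to 205 CPM. The doses differ, and no test was made between these extracts. Of the 5 members 1 was higher and 1 lower, where 31% of genes were called (15.5% higher and 15.6% lower). MEST, at 0.09 ± 0.04 (adjusted p = 0.0620), passed only when either of 2 libraries was left out (0.0324 and 0.0492).

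In Sayeok-tang PEG10 had 335, 329 and 323 CPM at the high dose, against 409, 401 and 403 CPM at the low dose (−0.30 ± 0.03, adjusted p = 4.99e-09, edgeR). GRB10 had 91.1, 91.2 and 90.3 CPM at the high dose, against 82.7, 81.9 and 81.9 CPM at the low dose (0.14 ± 0.04, adjusted p = 0.00771). MEST had 73.0, 69.2 and 74.7 CPM at the high dose, against 61.2, 64.0 and 64.2 CPM at the low dose. It rose by 0.19 ± 0.04 (adjusted p = 0.00150). In all 3 genes the high and low doses did not overlap. Of the 5 members 2 were higher and 1 lower, where 7.58% of genes were called (3.82% higher and 3.77% lower).

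In Bojungikgi-tang PEG10 had 367 and 355 CPM at the high dose, against 410 and 408 CPM at the low dose. It was the 1 member called of 5, lower by 0.18 on the log2 scale (change −0.18 ± 0.04, adjusted p = 0.00896, edgeR), where 0.712% of genes were called (0.257% higher and 0.455% lower). The call was lost without low-dose library 2 (adjusted p = 0.156), low-dose library 3 (0.142) or high-dose library 3 (0.219). GRB10, at 0.11 ± 0.04, did not pass (adjusted p = 0.365). In Pinelliae Tuber no member was called between the doses by edgeR or DESeq2, while GRB10 (0.10 ± 0.04, adjusted p = 0.505) alone had an unadjusted p under 0.05. Of all genes 0.0663% were called (0.0603% higher and 0.00603% lower) there, and PEG10 had 412, 404 and 389 CPM at the high dose against 397, 407 and 399 CPM at the low dose (0.00 ± 0.03).

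Sayeok-tang and Bojungikgi-tang, both at 500 µg/mL, differed in 1 of the 5 members, where 2.05% of genes were called (1.09% higher and 0.957% lower). PEG10 was lower in Sayeok-tang, by 0.14 on the log2 scale (difference −0.14 ± 0.03, adjusted p = 0.0248, edgeR). That call was lost without either Bojungikgi-tang library (adjusted p = 0.286 and 0.0564), without Sayeok-tang library 2 or 3 (0.0818 and 0.121) and with no filter on low counts (0.0577). GRB10 (0.10 ± 0.04, adjusted p = 0.219) and MEST (0.11 ± 0.05, 0.243) did not pass. The changes with dose of the 2 formulas were not told apart for any member by edgeR, where 0.275% of genes were called (0.161% higher and 0.114% lower). For PEG10, the 1 member with an unadjusted p under 0.05, the difference was −0.12 ± 0.05 with an interval of −0.22 to −0.02 (adjusted p = 0.524).

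Set against vehicle, the same 2 genes were the members called in dried ginger, Scutellariae Radix and fresh ginger. PEG10 in the vehicle libraries was at 397, 375 and 363 CPM and GRB10 at 83.0, 79.1 and 82.3 CPM. In dried ginger at the high dose PEG10 fell by 0.92 on the log2 scale (SE 0.04, adjusted p = 1.30e-16, edgeR) and GRB10 rose by 0.62 ± 0.04 (adjusted p = 4.17e-13). Of the 5 members 1 was higher and 1 lower, where 39.2% of genes were called (20.2% higher and 19% lower). In Scutellariae Radix at 190 µg/mL the changes were −0.37 ± 0.03 for PEG10 (adjusted p = 8.54e-12) and 0.60 ± 0.03 for GRB10 (adjusted p = 1.08e-17), again 1 lower and 1 higher, where 40.3% of genes were called (20.2% higher and 20% lower).

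Fresh ginger at the high dose had PEG10 at −0.21 ± 0.04 (adjusted p = 0.000588, edgeR) and GRB10 at 0.13 ± 0.04 (adjusted p = 0.0358) against vehicle, 1 lower and 1 higher of 5, where 13.4% of genes were called (6.21% higher and 7.16% lower). The GRB10 call was lost without vehicle library 2 or 3 or fresh ginger library 1 or 3 (adjusted p up to 0.148) and with no filter on low counts (0.0829). Bojungikgi-tang and Pinelliae Tuber had no member called against vehicle by edgeR, where 3.73% (1.39% higher and 2.33% lower) and 8.93% (3.85% higher and 5.08% lower) of genes were called. In each of them 1 of the 5 members had an unadjusted p under 0.05. That was PHLDA2 in Bojungikgi-tang (0.36 ± 0.10, adjusted p = 0.0613) and PEG10 in Pinelliae Tuber (0.08 ± 0.03, adjusted p = 0.108). PHLDA2 was called there by DESeq2 (0.0143), with no filter on low counts (1.7e-05) and without vehicle library 3 (0.0173). PEG10 in Pinelliae Tuber passed without vehicle library 1 (0.0195).

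Sayeok-tang against vehicle had the most members called, 3 higher and 1 lower of 5, where 18.9% of genes were called (9.39% higher and 9.53% lower). PEG10 fell (−0.21 ± 0.03, adjusted p = 6.87e-06, edgeR) and GRB10 rose (0.15 ± 0.03, adjusted p = 0.00126). PHLDA2, the placental growth regulator, had 26.2, 25.2 and 26.5 CPM in Sayeok-tang at the high dose, against 16.7, 19 and 21.2 CPM in vehicle. It rose by 0.46 ± 0.09 (adjusted p = 0.00206), with no overlap, and at the low dose of Sayeok-tang it was already at 27.5, 24.0 and 21.8 CPM. In Bojungikgi-tang, numbered in the same set, PHLDA2 averaged 23.5, 21.6 and 24.3 CPM at the low, medium and high doses. The part of the set in these levels was not tested. Between the high and low doses of the 6 replicated extracts PHLDA2 was called in none by edgeR or DESeq2, nor had it an unadjusted p under 0.05 in any, with changes of −0.08 to 0.08. MEST, at 0.11 ± 0.04 against vehicle (adjusted p = 0.0474), lost its call by DESeq2 (0.0907) and without any one of vehicle library 2 or 3 and Sayeok-tang library 1 or 3 (up to 0.208).

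**Figure D4:**
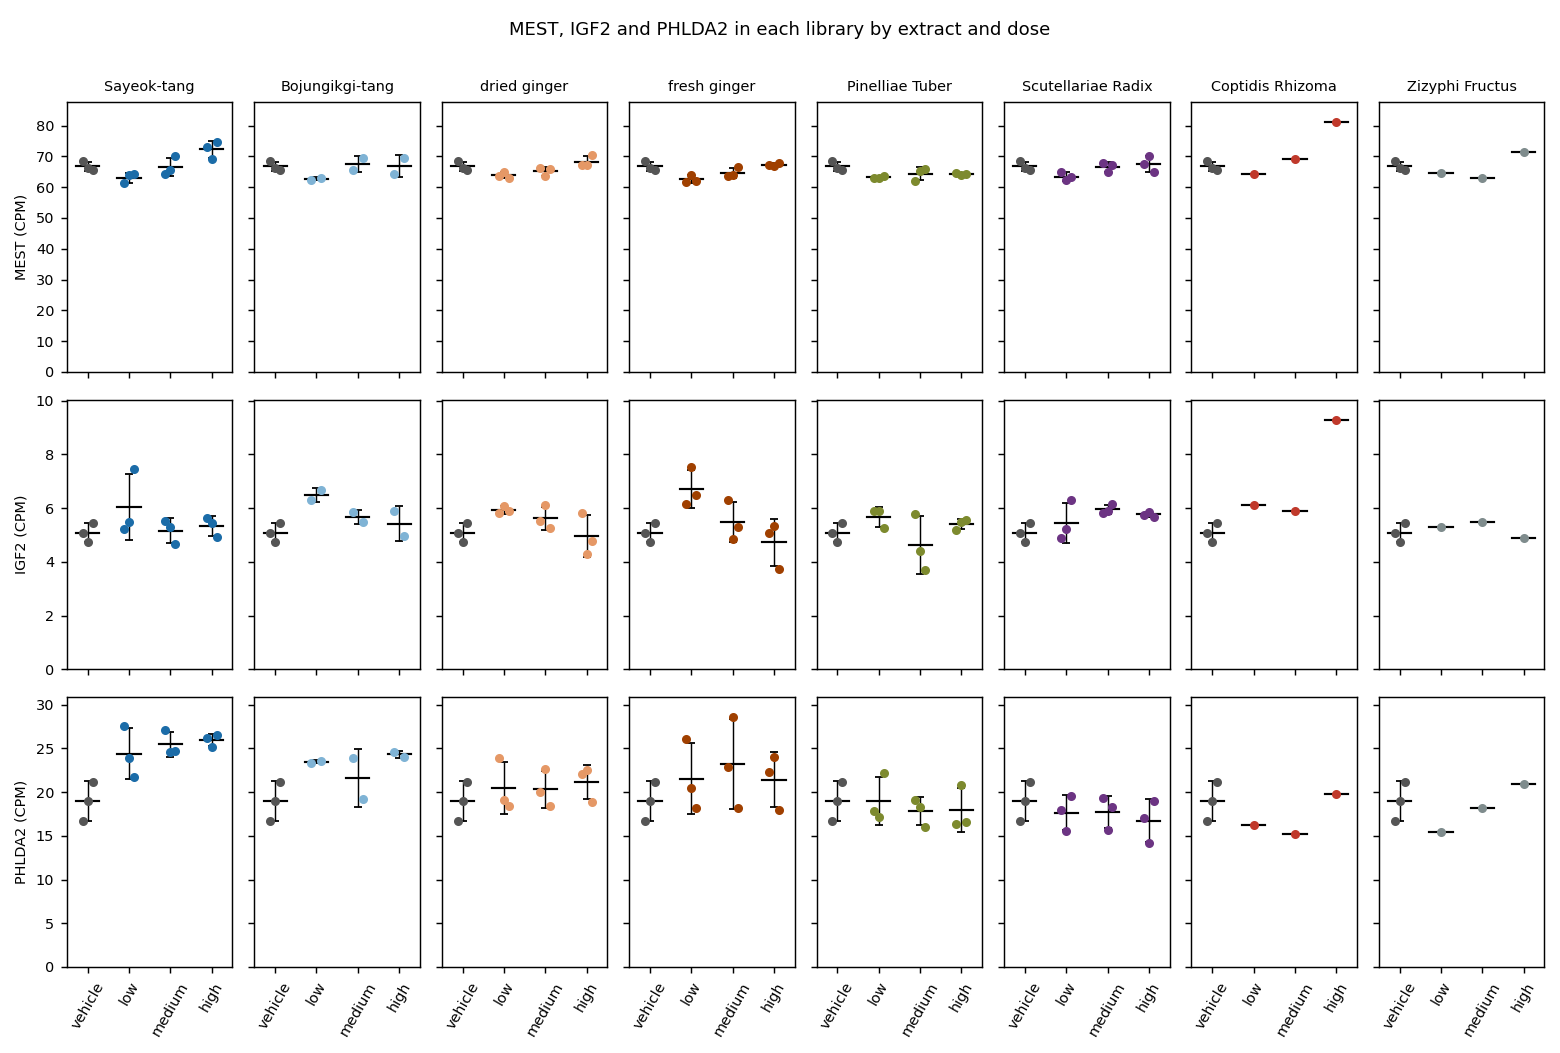
MEST, IGF2 and PHLDA2 in CPM per library (rows), 1 column per extract with vehicle, low, medium and high dose from left to right; points are libraries, horizontal lines are group means and bars are SD. MEST stays between 61.2 and 81.1 CPM in all 60 libraries, and the 3 PHLDA2 libraries of Sayeok-tang at the high dose (25.2 to 26.5 CPM) lie above the 3 of vehicle (16.7 to 21.2 CPM).

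The unreplicated extracts are given as values. In Coptidis Rhizoma, at rising dose, PEG10 had 302, 210 and 132 CPM, GRB10 106, 127 and 151 CPM, and MEST 64.3, 69.0 and 81.1 CPM. All 3 PEG10 values lay below the lowest vehicle library and all 3 GRB10 values above the highest, and the high dose held the lowest PEG10 and the highest GRB10 and MEST values of the 60 libraries. IGF2 had 6.10, 5.89 and 9.29 CPM and PHLDA2 16.3, 15.2 and 19.8 CPM in those libraries. In Zizyphi Fructus PEG10 had 401, 401 and 366 CPM, and GRB10 had 80.4, 83.2 and 74.9 CPM at rising dose. At the high dose PEG10 lay inside the vehicle range and GRB10 below the lowest vehicle library.

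Over the 25 groups, the mean log2 level of PEG10 followed that of H19 (Pearson r = 0.91) and that of GRB10 ran opposite (r = −0.88). These are descriptions over group means that share batch, vehicle and dose steps, and H19 was chosen for its pattern. Among 10972 genes with at least 5 CPM the middle of the distribution of r was 0.02, and the 5th and 95th percentiles were −0.83 and 0.82. PEG10 ranked 96 from the most alike of these genes. MEST was at −0.68, IGF2 at −0.16 and PHLDA2 at 0.03, and SGCE, which overlaps PEG10, at 0.56.

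**Figure D5:**
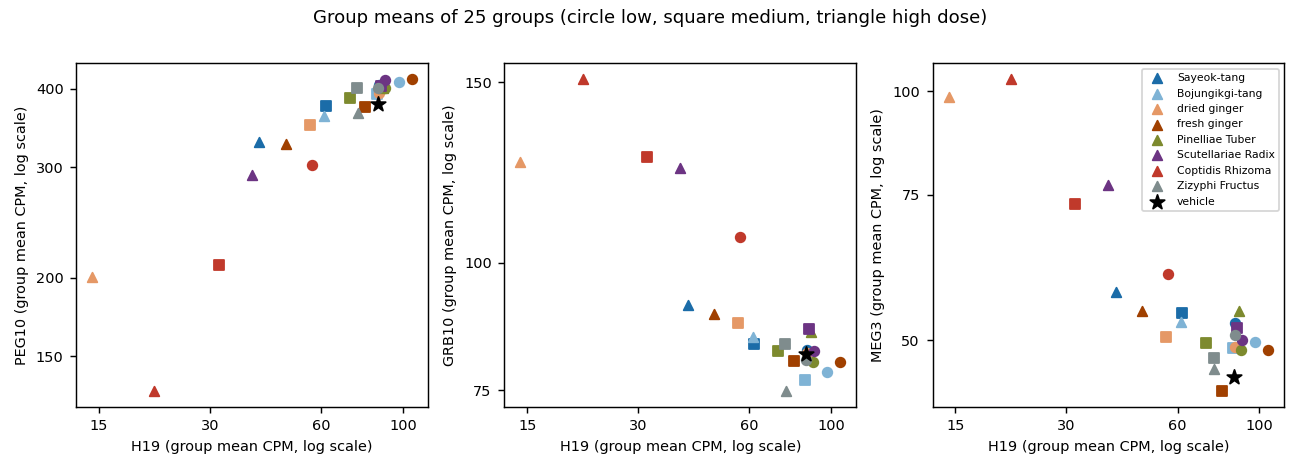
Group mean CPM of PEG10, GRB10 and MEG3 (vertical, log axis, 1 panel each) against group mean CPM of H19 (horizontal, log axis) for 25 groups; each point is 1 group. PEG10 falls with H19 (r = 0.91) while GRB10 (r = −0.88) and MEG3 (r = −0.91) tend to be higher where H19 is lower. Both are highest in Coptidis Rhizoma at the high dose, while H19 is lowest in dried ginger at the high dose.

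The 5 genes most like H19 by the same measure were HNF4A (0.99), GPX2 (0.98), ARRB1 (0.98), INSL4 (0.98) and FGA (0.97). HNF4A, a hepatic and gut transcription factor, averaged 63.1 ± 2.65 CPM at the high dose of dried ginger and 113 ± 1.36 CPM at its low dose (SD, n = 3 each). GPX2, a glutathione peroxidase, averaged 99.5 CPM at the high dose and 237 CPM at the low dose. ARRB1, a beta-arrestin, was at 3.00 and 9.63 CPM at those doses, INSL4, a placental insulin-like peptide, at 5.70 and 17.9 CPM, and FGA, a fibrinogen chain, at 46.8 and 151 CPM. The 5 most opposite were LOXL2 (−0.97), SQSTM1 (−0.97), PNMA2 (−0.97), GFPT2 (−0.97) and IRAK2 (−0.96). SQSTM1, the autophagy receptor p62, averaged 1411 CPM at the high dose of dried ginger and 815 CPM at the low dose, and LOXL2, a lysyl oxidase, 216 and 127 CPM.

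Other imprinted genes were counted from a list of 53 in the table outside the domain of H19, of which 40 were tested in at least 1 comparison. Of those, 22 were called in at least 1 of the 14 comparisons and 18 in none, where 62.4% of all genes tested were called in at least 1. Between the high and low doses 9 rose and 5 fell of 40 in dried ginger, where 32.8% of all genes were called (16.8% higher and 16% lower), with a median log2 change of 0.00, the same as that of all genes. In Scutellariae Radix 8 rose and 3 fell of 40, where 31% of all genes were called (15.5% higher and 15.6% lower). In Sayeok-tang 0 of 38 were called by edgeR or by DESeq2, where 7.58% of all genes were called by edgeR (3.82% higher and 3.77% lower). At an unadjusted p under 0.05, 4 were higher and 1 lower there.

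MEG3, a maternally expressed long noncoding RNA of the imprinted domain on chromosome 14, was the most often called of them, higher in 8 of 14 comparisons. It had 98.7, 111 and 85.4 CPM at the high dose of dried ginger, against 51.3, 49.9 and 46.1 CPM at the low dose (0.99 ± 0.09, adjusted p = 7.28e-08, edgeR). In Scutellariae Radix it had 71.8, 77.2 and 82.2 CPM at the high dose, against 47.3, 55.6 and 47.1 CPM at the low dose (0.63 ± 0.07, adjusted p = 6.81e-07). Vehicle libraries had 46.5, 46.9 and 42.1 CPM, and Coptidis Rhizoma 60.1, 73.1 and 103 CPM at rising dose. In dried ginger HM13, a signal peptide peptidase, rose by 0.28 (adjusted p = 1.57e-06) and ZDBF2 by 0.23 (0.0103), and ZNF331, a zinc finger gene, fell by 0.17 on the log2 scale. The ZDBF2 and ZNF331 calls were each lost under at least 1 other setting or left-out library. The same held for the MEG3 calls against vehicle in Bojungikgi-tang and in Pinelliae Tuber.

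Around H19 and IGF2, 10 of 22 listed neighbours in the domain were expressed well enough to test, and 10 of those 10 were called in at least 1 comparison, against 62.4% of all genes. In dried ginger 4 rose and 1 fell between low and high dose (median −0.03), where 16.8% of all genes were called higher and 16% lower. CARS, the cysteinyl-tRNA synthetase gene, rose by 0.62 ± 0.04 (adjusted p = 6.34e-14, edgeR) and was higher in 9 of 14 comparisons. SLC22A18, a membrane transporter gene, rose by 0.39 (adjusted p = 6.06e-05), and NAP1L4, a histone chaperone gene, fell (log2 change −0.25, adjusted p = 1.67e-06). The tetraspanin CD81 (−0.02, adjusted p = 0.740) and TSSC4 (−0.04, 0.667) did not pass there. The listed genes of the domain that passed the test in dried ginger thus moved in both directions.

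Genes that act with IGF2 were listed apart (20 in the table, 18 tested). In dried ginger 5 rose and 5 fell, where 16.8% of all genes were called higher and 16% lower. STC2, a secreted inhibitor of the protease PAPPA, averaged 121 CPM at the high dose and 26.5 CPM at the low dose (2.19 ± 0.06, adjusted p = 2.72e-21, edgeR), and it was higher in 12 of 14 comparisons. IGFBP3, the main carrier of IGFs in blood, averaged 98.3 CPM at the high dose and 173 CPM at the low dose (−0.82 ± 0.04, adjusted p = 3.45e-16). PAPPA, which frees IGFs from binding proteins, rose by 0.35 (adjusted p = 0.00108), and the receptor substrate IRS2 fell (−0.50, adjusted p = 4.21e-10). In Scutellariae Radix 6 rose and 3 fell, where 15.5% of all genes were called higher and 15.6% lower, with STC2 at 2.16 and IGFBP3 at −0.44.

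Of 18 tested genes listed for imprint maintenance and CTCF, 11 fell and 1 rose in dried ginger between low and high dose. The median was −0.21, where 16% of all genes were called lower and 16.8% higher. The list also holds genes with other roles, such as TET1, TET2, TET3 and HDAC1. Its counts are therefore not counts of genes that keep imprints alone. DNMT3B, a de novo DNA methyltransferase, averaged 14.5 CPM at the high dose and 25.0 CPM at the low dose (−0.79 ± 0.06, adjusted p = 1.59e-11, edgeR). TRIM28, the corepressor that holds methylation at imprinted regions, fell by 0.31 (adjusted p = 1.87e-07), RAD21, a cohesin subunit, by 0.41 (9.28e-10) and UHRF1, the partner of the maintenance methyltransferase, by 0.23 on the log2 scale. In Scutellariae Radix 11 fell and 0 rose by edgeR and by DESeq2 (0 higher at an unadjusted p under 0.05), with a median of −0.13, DNMT3B at −0.46 and UHRF1 at −0.36, where 15.6% of all genes were called lower and 15.5% higher. In Sayeok-tang and in fresh ginger 1 of the 18 fell and 0 rose by edgeR and by DESeq2, where 3.77% and 1.95% of all genes were called lower by edgeR. At an unadjusted p under 0.05, 2 were higher and 3 lower in Sayeok-tang, and 0 were higher and 5 lower in fresh ginger. CTCF and DNMT1 were each lower in 5 of the 14 comparisons. DNMT3A went the other way, higher in 6 of the 14 and lower in 0, though some of these calls were lost when 1 library was left out.

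Of 12 genes for microRNA processing or for proteins known to bind H19, 7 fell and 1 rose in dried ginger (median −0.13), where 16% of all genes were called lower and 16.8% higher. EZH2, the methyltransferase of the Polycomb complex, fell (log2 change −0.34, adjusted p = 1.38e-05, edgeR), its partner EED by 0.19 (a call lost under at least 1 other setting), and TARBP2, a partner of Dicer, by 0.31. In Scutellariae Radix 6 fell and 1 rose (median −0.13), where 15.6% of all genes were called lower and 15.5% higher. Of 12 tested relatives of the members, 6 rose and 2 fell in dried ginger (median 0.14), against the same shares of all genes called there, 16.8% higher and 16% lower. PHLDA1, a relative of PHLDA2, rose by 0.55 ± 0.04 (adjusted p = 5.54e-12) and CDKN1A, a relative of CDKN1C, by 0.37 (adjusted p = 2.88e-08). RTL8A (0.34, adjusted p = 0.00131) and RTL8B (0.77 ± 0.10, adjusted p = 1.03e-06), retrotransposon-derived like PEG10, also rose, but these are near-identical copies whose reads the counting may have split, so each value is uncertain. Over all genes tested, dried ginger and Scutellariae Radix were the extracts with the most called between high and low dose (32.8% and 31%). Between the same doses 2 of the 5 members were higher and 1 lower in dried ginger, and 1 higher and 1 lower in Scutellariae Radix. Sayeok-tang (7.58% of all genes called) also had 2 higher and 1 lower, and fresh ginger (3.67%) 1 higher and 2 lower.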

How the data were processed

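The authors deposited 1 table of RSEM expected counts per gene, not normalised, with 269 value columns, of which 60 belong to these samples and 209 were not used. Per the submitters' processing notes, FastQC 0.11.9, Trim Galore 0.6.5, STAR 2.7.3a and RSEM 1.3.3 were used with hg38 (GRCh38). Per the labels' protocols, libraries came from a directional mRNA kit and were read as 100 bp pairs. The annotation release and the counting strand are not given in the sources used here, and positions and exon lengths were taken from GENCODE 29. Of the non-zero expected counts deposited, 24.4% were not whole (tolerance 1e-06), and all were rounded.

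Each of 3 fits held 2 extracts numbered as a set and the 3 vehicle libraries. Genes were filtered with filterByExpr (minimum count 10), scaled by TMM and tested with edgeR 4.0.16 (robust quasi-likelihood, 1 mean per group, limma 3.58.1, R 4.3.3). P-values were adjusted by Benjamini-Hochberg over all genes tested, and called under 0.05. Errors of log2 changes are SE and those of CPM are SD. H19 log2 ratios and likeness used log2(CPM + 0.5), and folds of H19 are ratios of mean CPM. The fitting steps were also run on simulated counts.

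The members and gene lists were chosen with earlier results of these data known. From each list up to 5 genes with at least 1 CPM, called in the most of 14 comparisons, were named; likeness to H19 used genes with at least 5 CPM. No 2 replicates were identical among 51 pairs. Replicate numbers paired the samples, with every correlation of deviations over 0.1, in 2 of 14 comparisons: fresh ginger high against low (0.12, 0.23 and 0.33) and dried against fresh ginger at the high dose (0.16, 0.20 and 0.36). Alternatives were RLE size factors, no filter, 1 fit of all 60 libraries, DESeq2 1.42.0, a replicate block and leaving out each library, and for H19 a pseudocount of 0.1 CPM and plain CPM.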

Additional observations from a re-analysis of the deposited data

Results flagged for a closer look

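Both results below were picked out because the change between high and low dose differed between the gingers by a test of the difference itself. The change of PEG10 differed by −0.63 on the log2 scale, dried minus fresh ginger (−0.98 ± 0.04 in dried and −0.34 ± 0.04 in fresh ginger, edgeR). The change of GRB10 differed by 0.47 (0.62 ± 0.04 in dried and 0.15 ± 0.04 in fresh ginger). In both genes all 3 high-dose libraries of dried ginger lay outside the range of the 3 high-dose libraries of fresh ginger. These genes were among 5 members tested, where 11.2% of all genes were called.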

How the results depend on the processing

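Of 80 tested values of the members, 27 were called, and 20 of these kept their call under every other setting and left-out library. For PEG10 and GRB10 that held for 18 of 22. Of 910 values under other settings 34 lost and 7 gained a call and 0 called values changed sign. Of 208 called values of the 30 list genes named, 153 kept their call throughout and 0 reversed. The H19 ratios moved by less than the spread between libraries under RLE factors, plain CPM, the other pseudocount and each left-out library.

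The number of genes called moved by over 1.5 times in these comparisons. With no filter it was 193 for Bojungikgi-tang high against low (119 with the filter), 58 for Pinelliae Tuber high against low (11) and 88 for the dose changes of the formulas (46). In 1 fit of all 60 libraries it was 367 for Bojungikgi-tang against vehicle (623), 1010 for fresh ginger high against low (611) and 21 for Pinelliae Tuber high against low, for which DESeq2 gave 29. Leaving out 1 library gave 199 to 756 for Bojungikgi-tang against vehicle, 24 to 75 for its high against low dose, 183 to 244 for Sayeok-tang against Bojungikgi-tang (343), 16 to 39 for their dose changes, 1319 to 1854 for fresh ginger against vehicle (2223), 382 to 496 for its high against low dose, 673 to 1648 for Pinelliae Tuber against vehicle (1480) and 2 to 12 for its high against low dose. The lone library then left in a Bojungikgi-tang group is assumed to vary like the other groups. The cause was not tested.

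With the replicate block no member's call changed and each count stayed within 1.5 times. It gave 723 genes for fresh ginger high against low and 4054 for dried against fresh ginger (3745), where the numbers paired the samples, and 5688 for dried ginger high against low (5454) and 327 for Sayeok-tang against Bojungikgi-tang. In 11 comparisons with 3 pairs, every sample correlated best with its own number in 2. CDKN1C had 0 to 10 reads per library and could not be tested, and IGF2 had 78 to 210.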
